A study of Mus musculus with 35 samples.

Results

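The genes described here are 37 mouse genes of the unfolded protein response and of the protein folding machinery of the endoplasmic reticulum (ER), followed in liver after injection of silica particles. They were taken by symbol from the annotation of the array platform, and each is represented by the probe set with the highest mean signal among those annotated with that gene alone. All 37 were on the array, out of 18193 genes with such a probe set, and all 37 passed the filter on low signals, as did 12669 genes in all. Of these members, 14 encode chaperones and folding factors and 12 encode proteins of ER-associated degradation (ERAD) or of the translocon, and these 26 are called the ATF6/XBP1 arm below. The sensor genes Eif2ak3, Ern1 and Atf6 and the transcription factor gene Xbp1 make up 4 more, and the PERK/ATF4 arm has 7.

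Each BALB/c mouse received a single intravenous injection, and the left lateral liver lobe was taken 6 h later for 1 array per mouse. There were 5 mice in each of 7 groups, to which the labels say mice were assigned at random. The treated mice were given silica (SiO2) particles of different sizes: SP70 at 10, 20 or 40 mg/kg, SP30 at 10 mg/kg, or SP300 at 10 or 200 mg/kg. The control mice were given deionized water, the vehicle. A first experiment followed the dose of SP70, and a second compared the particle sizes, both at an equal dose (10 mg/kg) and at what the study calls toxic doses, which were 10 mg/kg of SP30, 40 mg/kg of SP70 and 200 mg/kg of SP300. The toxic doses had been chosen by the study from earlier histology and serum chemistry.

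The ER is where secreted and membrane proteins are threaded into the secretory route, folded and given disulfide bonds and sugars, and hepatocytes, which secrete most plasma proteins, are rich in it. When unfolded proteins build up there, the membrane sensors ATF6, IRE1 (the product of Ern1) and PERK (the product of Eif2ak3) become active. ATF6 is cut and moves to the nucleus, and IRE1 splices Xbp1 mRNA so that it encodes an active transcription factor. Both factors raise chaperone and ERAD genes. PERK phosphorylates eIF2α, which slows translation in general and favours translation of ATF4, a transcription factor for amino acid and stress genes and for CHOP, the product of Ddit3. Other kinases of eIF2α also act through ATF4.

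The ATF6/XBP1 arm is known for the ER stress response element, in which CCAAT is followed by CCACG after 9 further bases. This element was searched on both strands in RefSeq promoters of build GRCm38.p6, each with 250 bases before and 50 bases after the annotated start of a gene. Promoters were matched for 32 of the 37 members, and 5 (Atf6, Derl1, Hyou1, Manf and Sec61a1) are named only. The element was found in 9 of the 22 matched genes of the ATF6/XBP1 arm (40.9%), in 0 of 7 PERK/ATF4 genes, and in 37 of 27025 genes in the whole promoter table (0.137%). Among the arm's genes it was in 7 of 12 chaperone genes (58.3%) and in 2 of 10 ERAD and translocon genes. The element of each such promoter is shown with 10 bases on each side, read in the direction in which CCAAT comes first, with CCAAT and CCACG in capitals. Hsp90b1 had it in 2 places, and both are shown. Creld2, Syvn1 and Derl3, whose signals moved most with the particles, are first.
Creld2 (chr15:88819510-88819548): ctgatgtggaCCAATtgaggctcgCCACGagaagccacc
Syvn1 (chr19:6046522-6046560): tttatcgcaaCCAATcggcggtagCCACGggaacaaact
Derl3 (chr10:75893232-75893270): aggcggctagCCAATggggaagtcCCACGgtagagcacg
Hspa5 (chr2:34772015-34772053): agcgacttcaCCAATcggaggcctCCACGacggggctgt
Dnajc3 (chr14:118937817-118937855): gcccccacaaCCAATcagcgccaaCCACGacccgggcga
Pdia6 (chr12:17266481-17266519): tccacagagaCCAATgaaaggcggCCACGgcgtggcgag
Calr (chr8:84847065-84847103): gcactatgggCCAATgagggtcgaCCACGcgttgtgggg
Canx (chr11:50325790-50325828): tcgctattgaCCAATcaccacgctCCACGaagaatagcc
Hsp90b1 (chr10:86705628-86705666): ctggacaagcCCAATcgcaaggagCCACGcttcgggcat
Hsp90b1 (chr10:86705523-86705561): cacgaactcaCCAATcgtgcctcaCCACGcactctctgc
The letters between and around the capitals differed from gene to gene. Relative to the gene, the element ran with it in Hspa5, Syvn1, Dnajc3, Pdia6 and Canx and against it in Creld2, Derl3 and Calr, while Hsp90b1 had 1 copy in each direction. Its first base lay from 44 bases before the annotated start in Syvn1 to 212 bases before it in the farther copy of Hsp90b1. A match is a description of these letters and no evidence of binding.

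A second element, TTGCATCA or TTTCATCA on either strand, is of the kind bound by ATF4. It was found in 2 of the 7 PERK/ATF4 genes (28.6%), in Herpud1 of the ATF6/XBP1 arm, and in 583 of the 27025 genes (2.16%). These promoter stretches are shown because they are the 3 member promoters with this element, which is in capitals.
Asns (chr6:7693215-7693242): gtgcgggaagTTTCATCAtgtggctggg
Chac1 (chr2:119351039-119351066): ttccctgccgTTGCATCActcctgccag
Herpud1 (chr8:94386307-94386334): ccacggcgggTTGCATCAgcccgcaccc
The shorter core element TGACGTGG was in 193 of the 27025 genes (0.714%) and in 0 of the 32 matched members, which says only that these letters are not in these windows. No member promoter held more than 1 of the 3 kinds of element, so none of the matches overlap.

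**Figure D1:**
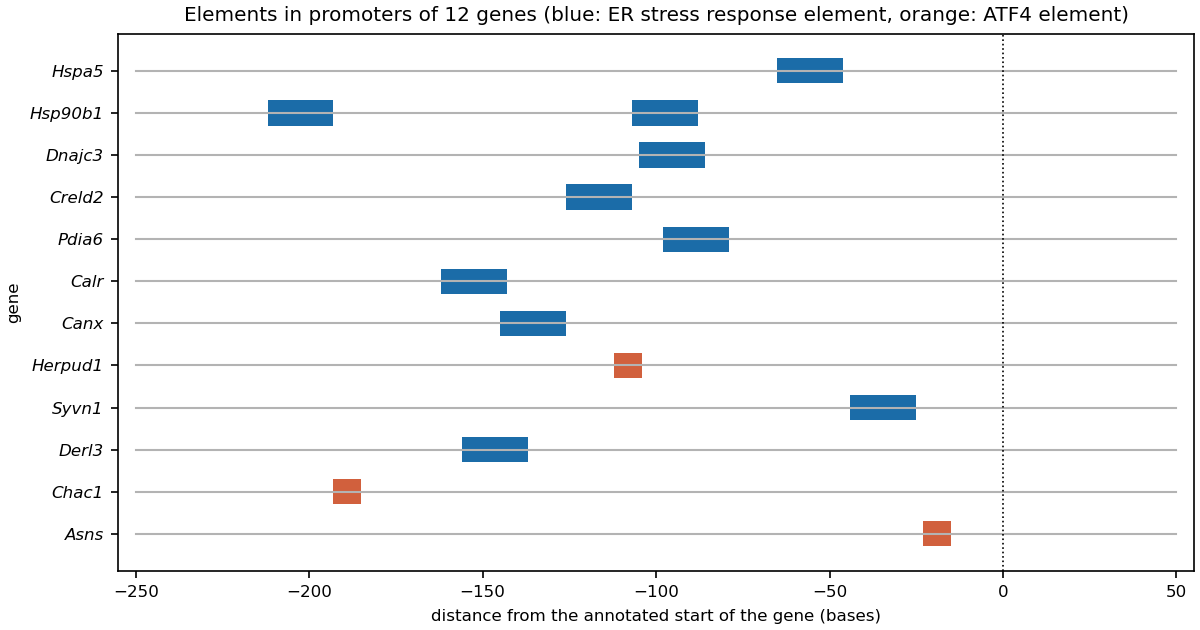
Position of the elements in the promoters of the 12 members that hold one, in bases from the annotated start of the gene (x axis, negative values before the start), with 1 line per gene. Elements with CCAAT and CCACG lie between 212 bases and 26 bases before the start, and the 3 elements of the ATF4 kind lie in Asns, Chac1 and Herpud1.

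The values are array signals on a linear scale, with no unit, and are used here on the log2 scale after 12.5 was added. Log2 differences of low genes are understated on that scale. Folds are ratios of geometric mean signals without the added 12.5, and so can be slightly larger than the log2 differences beside them give. A gene counts as higher or lower in a group where the adjusted p of limma's two-sided moderated test, adjusted over all 12669 genes, was under 0.05. The p-values set a difference against the spread between mice of the same group, estimated from all 7 groups together. Array medians ran from 148.8 to 180.2, arrays of a group correlated at 0.941 to 0.956 across log2 signals, and 0 pairs of arrays were identical. The number of arrays limits the precision, and the signal of a gene cannot be set against that of another gene. The signals are from whole liver tissue, in which fewer cells of a type and less RNA per cell cannot be told apart.

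Marker genes of other cell types of the liver changed with the particles, and they were summed per mouse. Over all genes tested, 12.5%, 18.8% and 15.6% were higher and 5.70%, 20.9% and 28.8% lower at the 3 rising doses of SP70. The shares were 18.1% higher and 31.3% lower after SP30. They were 0.924% and 0.245% after SP300 at 10 mg/kg, and 12.6% and 18.0% at 200 mg/kg. Of 12 Kupffer cell markers (liver macrophages), 9 fell after SP70 at 10 mg/kg, 11 at 20 mg/kg and 11 at 40 mg/kg, as did 10 after SP30, 0 after SP300 at 10 mg/kg and 11 after SP300 at 200 mg/kg. Their summed signal was 10591 to 18046, 2855 to 5287 and 1890 to 3138 at the 3 rising doses of SP70, 8542 to 18906 after SP30, and 30245 to 43495 and 1976 to 2512 after SP300 at 10 and 200 mg/kg, against 27491 to 39763 in control mice. Of 10 neutrophil markers tested, 7, 7 and 9 rose at the 3 rising doses of SP70, 8 rose after SP30, and 0 and 6 rose after SP300 at 10 and 200 mg/kg. The neutrophil sum was 18987 to 26719, 19825 to 30491 and 27111 to 64320 after SP70, 49150 to 67061 after SP30, and 1421 to 2296 and 10815 to 25873 after SP300, against 1345 to 2974 in control mice. All 6 monocyte markers tested rose after SP70 at each dose and after SP30, and 5 after SP300 at 200 mg/kg. Endothelial markers fell for 2, 5 and 7 of 12 at the 3 doses of SP70, 8 after SP30 and 6 after SP300 at 200 mg/kg. In contrast, Lyve1 rose in those 5 treatments, by 1.46 to 2.14 on the log2 scale, and Cdh5 rose at 20 mg/kg of SP70 by 0.98 ± 0.24 and at 200 mg/kg of SP300 by 0.83 ± 0.24. No marker was listed at 0.

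Plasma cells also carry a large ER. Of 6 plasma cell and B cell markers tested, 0 passed limma's test in any comparison with control, and at most 1 had an unadjusted p under 0.05. Their summed signal was 1970 to 2392, 1885 to 2222 and 1678 to 2497 after SP70 at 10, 20 and 40 mg/kg, 2022 to 3277 after SP30, and 1976 to 2705 and 1847 to 2338 after SP300, against 1961 to 2277 in control mice. The liver label was borne out by 12 hepatocyte markers, whose sum was 705001 or more on every array. Of these, 4 were lower after SP70 at 40 mg/kg, 1 after SP30 and 6 after SP300 at 200 mg/kg, while 1 was higher at 10 mg/kg of SP70, 1 at 20 mg/kg of SP70 and 2 after SP30. The part of these shifts in the results on the 37 genes was not tested.

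In the livers of mice given SP70 at any dose, SP30, or the high dose of SP300, most of the 37 genes were higher than in control livers, and most chaperone and ERAD genes had their highest mean at the middle dose of SP70. After SP70 at 10 mg/kg, 21 of the 37 were higher and 0 lower, where 12.5% of all genes were higher and 5.70% lower. At 20 mg/kg, 30 were higher and 0 lower, where 18.8% of all genes were higher and 20.9% lower. At 40 mg/kg, 28 were higher and 2 (Derl2 and Ern1) lower, where 15.6% of all genes were higher and 28.8% lower. SP30 gave 28 higher members and 1 lower (Derl2), where 18.1% of all genes were higher and 31.3% lower. SP300 gave 3 higher members at 10 mg/kg, where 0.924% of all genes were higher and 0.245% lower, and 26 higher members with 1 lower (Ern1) at 200 mg/kg, where 12.6% were higher and 18.0% lower.

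The size of the shift followed the same groups. The median log2 difference of the 37 genes from control was 0.39, 0.78 and 0.61 at the 3 rising doses of SP70, 0.63 after SP30, and 0.13 and 0.66 after SP300 at 10 and 200 mg/kg. Over all genes tested, the same medians were 0.01, -0.03 and -0.09 for SP70, -0.12 for SP30, and 0.06 and -0.06 for SP300. The mice of the treated group lay wholly above the control mice for 8, 27 and 25 of the 37 genes after SP70 at 10, 20 and 40 mg/kg, 22 after SP30, and 3 and 23 after SP300 at 10 and 200 mg/kg. The same count over all genes was not made, so these counts describe the 37 genes alone.

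By arm, the ATF6/XBP1 arm had 15, 23 and 20 of its 26 genes higher at the 3 rising doses of SP70, 19 after SP30, and 2 and 21 after SP300 at 10 and 200 mg/kg. The median log2 difference of the arm was 0.34, 0.80 and 0.47 for SP70, 0.51 for SP30, and 0.15 and 0.72 for SP300. In the PERK/ATF4 arm, 3, 6 and 6 of 7 genes were higher after SP70, 6 after SP30, and 1 and 2 after SP300. That arm's median was 0.52, 0.96 and 1.03 after SP70, 1.08 after SP30, and 0.10 and 0.40 after SP300. After SP300 at 200 mg/kg most of the ATF6/XBP1 arm was higher, and 2 of 7 PERK/ATF4 genes were, where 12.6% of all genes were higher. The other 5 PERK/ATF4 genes did not pass the test, but that count depended on the threshold. At an unadjusted p under 0.05 in limma's test, 4 of the 7 were higher. At that threshold 11 of 14 chaperone genes and 11 of 12 ERAD and translocon genes were higher. A difference between the arms was not tested. The count for the ATF6/XBP1 arm at SP70 10 mg/kg depended on single mice: without control replicate 1 it was 8 of 26, and without SP70 10 mg/kg replicate 2 it was 9. The count of 2 PERK/ATF4 genes after SP300 at 200 mg/kg became 4 without SP300 200 mg/kg replicate 5. It was also 4 when the probe sets of each gene were averaged.

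**Figure D2:**
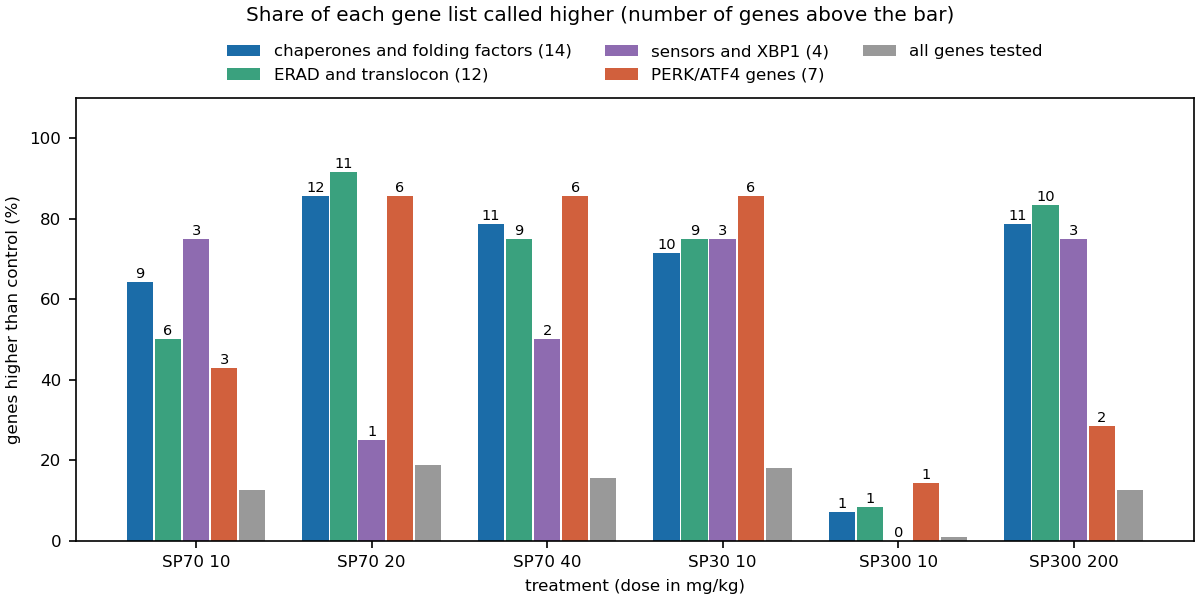
Share of each role list that was higher than control (y axis, percent of genes tested), for the 6 treatments, with the share over all genes tested beside it. After SP300 at 10 mg/kg 3 of the 37 genes were higher, and after SP70 at 20 mg/kg 12 of 14 chaperone genes, 11 of 12 ERAD and translocon genes and 6 of 7 PERK/ATF4 genes were.

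**Figure D3:**
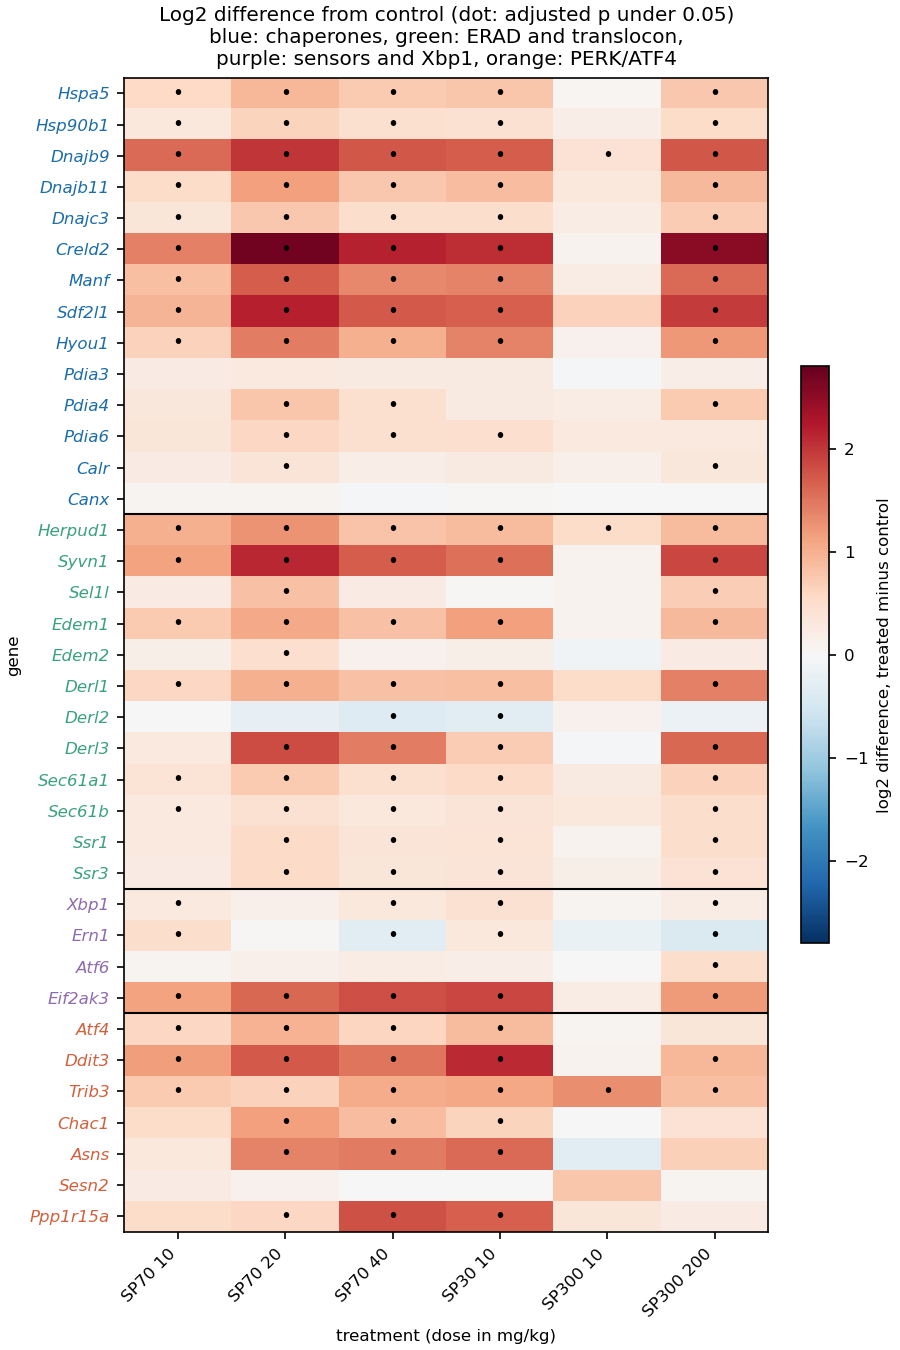
Log2 difference from control for each of the 37 genes (rows, by role) after each of the 6 treatments (columns), 5 mice per group, with a dot where the adjusted p was under 0.05. Creld2, Sdf2l1, Syvn1 and Dnajb9 show the strongest colours of the ATF6/XBP1 arm, and the column of SP300 at 10 mg/kg has 3 dots.

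Among the chaperones and folding factors, the 5 genes with the widest range over the groups were Creld2, Sdf2l1, Dnajb9, Manf and Hyou1. They are therefore given mouse by mouse, a choice that used the measured values. Creld2 encodes an ER-resident protein with EGF-like repeats that is induced by ER stress. Creld2 signal in the 5 control mice was 2861, 2695, 5320, 4579 and 7609, and it was 12499, 20085, 4976, 10308 and 14452 at 10 mg/kg of SP70, 25098, 26556, 26357, 28428 and 32775 at 20 mg/kg and 17565, 19010, 17833, 18803 and 22031 at 40 mg/kg. SP30 gave 16697, 14870, 15702, 18855 and 25756 for Creld2, and SP300 gave 10132, 3919, 4452, 4033 and 2843 at 10 mg/kg and 20351, 25534, 25565, 24379 and 27456 at 200 mg/kg. Mouse 3 of the lowest SP70 dose lay among the control mice, whereas every mouse given 20 or 40 mg/kg of SP70, SP30 or the high dose of SP300 lay above all of them. All mice at 20 mg/kg also lay above all mice at 40 mg/kg. After SP300 at 10 mg/kg, 4 mice were within the control range and mouse 1 was above it. The log2 difference from control was 1.40 ± 0.27, 2.69 ± 0.27 and 2.15 ± 0.27 (SE) at the 3 doses of SP70, 2.07 ± 0.27 after SP30 (adjusted p = 9.57e-08) and 2.52 ± 0.27 after SP300 at 200 mg/kg (adjusted p = 7.1e-09), which is 5.74-fold.

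Sdf2l1 encodes a partner of BiP and its J-domain cochaperones. Its signal was 1563, 2645, 3047, 4579 and 5046 in control mice, 6731, 9664, 3430, 5332 and 6466 at 10 mg/kg of SP70, 10973, 14040, 13617, 14948 and 17754 at 20 mg/kg and 10545, 9876, 8285, 9697 and 13089 at 40 mg/kg. Sdf2l1 after SP30 was 8837, 7968, 8204, 12183 and 13723, and after SP300 it was 7703, 6908, 5032, 3406 and 3008 at 10 mg/kg and 9218, 13551, 10767, 11468 and 17207 at 200 mg/kg. The lowest SP70 dose and the low dose of SP300 overlapped the control mice, and the other 4 treatments did not. At SP70 20 mg/kg the log2 difference from control was 2.18 ± 0.27 (adjusted p = 3.6e-08), or 4.53-fold. After SP300 at 10 mg/kg the difference of 0.65 ± 0.27 did not pass the test (adjusted p = 0.254).

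Dnajb9 (ERdj4) encodes a J-domain cochaperone of BiP. It had signals of 9125, 9343, 10531, 8994 and 10196 in control mice, 30289, 35033, 20742, 26649 and 34576 at 10 mg/kg of SP70, 39484, 39454, 36667, 38088 and 38729 at 20 mg/kg and 33167, 32020, 29353, 33059 and 33807 at 40 mg/kg. Dnajb9 reached 28384, 29757, 32059, 31068 and 35957 after SP30, 15205, 9818, 12523, 13919 and 12694 after SP300 at 10 mg/kg and 29521, 31645, 33067, 33338 and 32279 after SP300 at 200 mg/kg. The control mice lay in a narrow band, and all treated mice but 1 given SP300 at 10 mg/kg were above it. Dnajb9 was the chaperone gene that also passed the test after SP300 at 10 mg/kg, with a log2 difference of 0.40 ± 0.10 (adjusted p = 0.0359), and of 1.73 ± 0.10 after SP300 at 200 mg/kg (adjusted p = 1.42e-15). The call at 10 mg/kg of SP300 was lost without control replicate 1, 2 or 4 or SP300 10 mg/kg replicate 1, 3, 4 or 5, at differences of 0.34 to 0.41.

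Manf encodes an ER stress-induced protein that resides in the ER and can be secreted. Manf measured 9531, 14057, 15188, 11717 and 19270 in control mice, 26672, 32399, 16456, 21104 and 28204 at 10 mg/kg of SP70, 39472, 43791, 44718, 43869 and 49741 at 20 mg/kg and 33210, 34834, 30515, 34869 and 40523 at 40 mg/kg. After SP30 the Manf signals were 29923, 33876, 31810, 40874 and 43985, and SP300 gave 27112, 16436, 16098, 15643 and 8676 at 10 mg/kg and 38818, 41852, 35942, 40339 and 46985 at 200 mg/kg. Mice at the lowest SP70 dose overlapped the control mice by mouse 3, and the low SP300 dose spread across the control range and beyond it at both ends. Manf rose by 1.40 ± 0.19 on the log2 scale after SP30 (adjusted p = 1.57e-07), which is 2.63-fold.

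Hyou1 (GRP170) encodes a nucleotide exchange factor of BiP. Hyou1 was 3354, 4272, 4763, 5325 and 5937 in control mice, 7230, 10455, 5274, 6132 and 8212 at 10 mg/kg of SP70, 10645, 12043, 10732, 13168 and 16972 at 20 mg/kg and 8238, 10122, 6906, 8541 and 13412 at 40 mg/kg. It was 9761, 10747, 10409, 17124 and 14502 after SP30, 8366, 4475, 5674, 4754 and 3195 after SP300 at 10 mg/kg and 9552, 12810, 9385, 9144 and 13882 after SP300 at 200 mg/kg. SP70 at 20 and 40 mg/kg, SP30 and the high dose of SP300 left no overlap with control. Its log2 difference was 1.39 ± 0.21 after SP30 (adjusted p = 9.98e-07) and 0.98 ± 0.21 after SP70 at 40 mg/kg (adjusted p = 0.000205).

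The central chaperone genes moved less. Hspa5, which encodes BiP, the ER chaperone of the Hsp70 family, averaged 55659 ± 6569, 71341 ± 4238 and 62198 ± 4365 (SD, n = 5) at the 3 rising doses of SP70, 63896 ± 5524 after SP30, and 40021 ± 9953 and 63450 ± 2372 after SP300 at 10 and 200 mg/kg, against 37772 ± 5868 in control mice. Its log2 difference was 0.56 ± 0.11, 0.93 ± 0.11 and 0.73 ± 0.11 after SP70 (adjusted p = 0.000171, 1.48e-08 and 9.49e-07), a rise of 1.9-fold at the middle dose. Many of these signals are above 48037, below which 99.5% of the table lies, and whether such probe sets were saturated was not tested. Hsp90b1 (GRP94, the ER member of the Hsp90 family) was higher by 0.29, 0.63 and 0.45 on the log2 scale after SP70, 0.42 after SP30 and 0.52 after SP300 at 200 mg/kg. Dnajb11 (ERdj3) and Dnajc3 (p58IPK), both J-domain cochaperones of BiP, rose in the same 5 treatments, by 0.52 to 1.15 and by 0.34 to 0.77.

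The disulfide isomerases and lectin chaperones responded in part. Pdia4 was higher at 20 and 40 mg/kg of SP70 and after SP300 at 200 mg/kg, by 0.78 ± 0.14, 0.44 ± 0.14 and 0.74 ± 0.14 on the log2 scale. Pdia6 was higher at 20 and 40 mg/kg of SP70 and after SP30, by 0.59 ± 0.14, 0.44 ± 0.14 and 0.46 ± 0.14. Calr (calreticulin, a lectin chaperone of glycoproteins) was higher after SP70 at 20 mg/kg by 0.35 ± 0.10 (adjusted p = 0.00712) and after SP300 at 200 mg/kg by 0.31 ± 0.10 (adjusted p = 0.023), a call lost without control replicate 1 or 2 (0.23 to 0.26). Canx, which encodes the membrane-bound lectin chaperone calnexin, and Pdia3, the disulfide isomerase that works with both lectins, passed limma's test in 0 of the 6 comparisons with control, and in 0 at an unadjusted p under 0.05. Their adjusted p was 0.519 and 0.15 at 20 mg/kg of SP70. The 95% interval of the Canx difference there was -0.10 to 0.26. Pdia6, Calr and Canx hold the ER stress response element shown above. Of the 9 members with it, 5, 8 and 7 were higher after SP70 at 10, 20 and 40 mg/kg, 7 after SP30, and 0 and 7 after SP300 at 10 and 200 mg/kg. Of all genes, 12.5%, 18.8% and 15.6% were higher after SP70, 18.1% after SP30, and 0.924% and 12.6% after SP300. At 20 mg/kg of SP70, 30 of all 37 members were higher. Whether members with the element differed from those without it was not tested.

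The ERAD and translocon genes had 6, 11 and 9 of 12 higher at the 3 rising doses of SP70, 9 after SP30, and 1 and 10 after SP300 at 10 and 200 mg/kg. Syvn1 encodes HRD1, the ubiquitin ligase of the main ERAD complex. Syvn1 signal was 4913, 5323, 5624, 4775 and 6288 in control mice, 12307, 19984, 7066, 8564 and 15327 at 10 mg/kg of SP70, 20876, 23003, 20832, 24460 and 27084 at 20 mg/kg and 17338, 17807, 16130, 15871 and 19823 at 40 mg/kg. Syvn1 stood at 14894, 13628, 14186, 15199 and 20674 after SP30, 9197, 4882, 5179, 5232 and 5189 after SP300 at 10 mg/kg and 15275, 20802, 19093, 19298 and 23959 after SP300 at 200 mg/kg. Every mouse of the 3 SP70 doses, SP30 and the high SP300 dose was above every control mouse. At 20 mg/kg of SP70 all mice were also above those at 40 mg/kg. After SP300 at 10 mg/kg mouse 1 alone lay above the control range. The log2 difference was 1.14 ± 0.18, 2.11 ± 0.18 and 1.69 ± 0.18 at the 3 doses of SP70 (adjusted p = 1.29e-05, 2.72e-11 and 2.39e-09), and 1.86 ± 0.18 after SP300 at 200 mg/kg, or 3.64-fold.

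Derl3 and Derl1 encode derlins, membrane proteins through which misfolded proteins leave the ER. Derl3 was 405, 383, 521, 679 and 1163 in control mice, 718, 1220, 316, 671 and 917 at 10 mg/kg of SP70, 1744, 1830, 1952, 2024 and 3087 at 20 mg/kg and 1371, 1491, 1586, 1261 and 2435 at 40 mg/kg. SP30 gave Derl3 signals of 1065, 687, 830, 807 and 1634, and SP300 gave 649, 736, 611, 467 and 414 at 10 mg/kg and 1246, 1734, 1962, 1691 and 2443 at 200 mg/kg. Derl3 at 10 mg/kg of SP70 covered the control range, and the mice at 20 and 40 mg/kg of SP70 and 200 mg/kg of SP300 lay above it. Its log2 difference was 0.28 ± 0.28 at 10 mg/kg of SP70 (adjusted p = 0.558), 1.83 ± 0.28 at 20 mg/kg (adjusted p = 2.45e-06), and 0.72 ± 0.28 after SP30 (adjusted p = 0.0332). The call after SP30 was lost without control replicate 1, 2 or 3 or SP30 10 mg/kg replicate 1 or 5, at 0.52 to 0.68.

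Derl1 reached its highest level after SP300 at 200 mg/kg. The Derl1 signal was 5700, 5613, 7055, 5983 and 7248 in control mice, 8471, 11693, 9892, 8260 and 8845 at 10 mg/kg of SP70, 14099, 11752, 11000, 13316 and 12526 at 20 mg/kg and 10559, 14365, 8587, 10285 and 12407 at 40 mg/kg. It was 9057, 10017, 11520, 13720 and 12565 after SP30, 6833, 6225, 12665, 10328 and 10272 after SP300 at 10 mg/kg and 22330, 20621, 13514, 14336 and 15205 after SP300 at 200 mg/kg. All mice given SP70, SP30 or the high dose of SP300 were above the control mice, and at 10 mg/kg of SP300 mice 1 and 2 were within the control range. Derl1 rose 2.68-fold after SP300 at 200 mg/kg, a log2 difference of 1.42 ± 0.16 (adjusted p = 1.66e-08).

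Derl2, the remaining derlin gene, went the other way. It averaged 14462 ± 1367 at 40 mg/kg of SP70 and 14943 ± 1933 after SP30, against 18587 ± 2277 in control mice, with log2 differences of -0.36 ± 0.10 and -0.32 ± 0.10 (adjusted p = 0.00555 and 0.0125). The call after SP30 was lost without SP30 10 mg/kg replicate 1, at -0.24. Herpud1 encodes a membrane protein that scaffolds ERAD complexes, and it was the ERAD gene that passed the test in all 6 treatments, with log2 differences of 0.99, 1.26 and 0.81 at the 3 doses of SP70, 0.88 after SP30, and 0.52 ± 0.10 (adjusted p = 0.00494) and 0.89 after SP300 at 10 and 200 mg/kg. Sel1l, the partner of HRD1, was higher at 20 mg/kg of SP70 by 0.81 ± 0.12 and at 200 mg/kg of SP300 by 0.68 ± 0.12, and was 0.23 ± 0.12 at 40 mg/kg of SP70 without passing the test (adjusted p = 0.134). Edem1, which directs misfolded glycoproteins to degradation, was higher by 0.73 to 1.14 in all treatments except SP300 at 10 mg/kg. Its relative Edem2 passed the test at 20 mg/kg of SP70, at 0.47 ± 0.11.

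Sec61a1 and Sec61b, which encode subunits of the channel into the ER, were higher by 0.39 to 0.74 and by 0.26 to 0.50 on the log2 scale in the 5 treatments other than SP300 at 10 mg/kg. Ssr1 and Ssr3, subunits of the translocon-associated protein complex, were higher in 4 of those 5, by 0.35 to 0.54 and by 0.34 to 0.53, and not at 10 mg/kg of SP70 (adjusted p = 0.0836 and 0.0773).

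Of the sensors, the PERK gene Eif2ak3 responded most. Eif2ak3 signal was 1110, 1116, 957, 1306 and 1031 in control mice, 2763, 2765, 1846, 2212 and 2660 at 10 mg/kg of SP70, 3170, 3502, 3219, 3358 and 3539 at 20 mg/kg and 3946, 3344, 3608, 4433 and 4095 at 40 mg/kg. For SP30, Eif2ak3 was 4857, 4331, 4005, 3316 and 3812, and for SP300 it was 1410, 1216, 1271, 1185 and 1236 at 10 mg/kg and 2223, 2629, 2390, 2801 and 2589 at 200 mg/kg. The mean was higher at each further dose of SP70, and every mouse given SP70, SP30 or the high dose of SP300 lay above the control mice, as did mouse 1 of the low SP300 dose. The log2 difference was 1.13 ± 0.10, 1.60 ± 0.10 and 1.80 ± 0.10 for SP70 (adjusted p = 2.14e-10, 2.29e-14 and 6.28e-16), 1.86 ± 0.10 for SP30 and 1.19 ± 0.10 for SP300 at 200 mg/kg, which are 3.52-fold at 40 mg/kg of SP70 and 3.67-fold after SP30.

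Ern1, which encodes the sensor IRE1, did not share this pattern. Ern1 was 4949, 4409, 4583, 6118 and 6613 in control mice, 8329, 7121, 7754, 7403 and 6547 at 10 mg/kg of SP70, 5792, 5130, 4662, 4933 and 6383 at 20 mg/kg and 4596, 3762, 3488, 5017 and 4513 at 40 mg/kg. Ern1 measured 5418, 6734, 6553, 8495 and 5605 after SP30, 5552, 4082, 5418, 4452 and 3830 after SP300 at 10 mg/kg and 4474, 3959, 3676, 3937 and 3988 after SP300 at 200 mg/kg. The highest group was the lowest dose of SP70, and the mean was lower at each further dose, with no overlap between 40 and 10 mg/kg. Against control, Ern1 was higher at 10 mg/kg of SP70 by 0.49 ± 0.12 (adjusted p = 0.00429) and after SP30 by 0.30 ± 0.12 (adjusted p = 0.0467), and lower at 40 mg/kg of SP70 (-0.31 ± 0.12, adjusted p = 0.0403) and at 200 mg/kg of SP300 (-0.40 ± 0.12, adjusted p = 0.0145). The call at 10 mg/kg of SP70 held without any single mouse. The other 3 did not: the call after SP30 was lost without control replicate 1, 2 or 3 or SP30 10 mg/kg replicate 2, 3 or 4 (0.20 to 0.29), that at 40 mg/kg of SP70 without control replicate 4 or 5 or SP70 40 mg/kg replicate 2 or 3 (-0.27 to -0.23), and that at 200 mg/kg of SP300 without control replicate 4 or 5 (-0.34 to -0.31). A second Ern1 probe set that passed the filter was called in the opposite direction after SP30, so that call is uncertain. With the mean of all probe sets, Ern1 was also no longer called in SP70 at 20 against 10 mg/kg or in SP30 against SP70 at 40 mg/kg.

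Xbp1 encodes the transcription factor that IRE1 splicing activates, and splice forms were not resolved here. It was higher at 10 and 40 mg/kg of SP70 by 0.27 ± 0.07 and 0.31 ± 0.07, after SP30 by 0.43 ± 0.07 and after SP300 at 200 mg/kg by 0.21 ± 0.07, and did not pass the test at 20 mg/kg of SP70 (0.15 ± 0.07, adjusted p = 0.108). Atf6 was higher in 1 of the 6 treatments, SP300 at 200 mg/kg, where it averaged 3562 ± 376 against 2545 ± 276 in control mice and the log2 difference was 0.48 ± 0.09 (adjusted p = 0.000135). The Atf6 call held without any single mouse, whereas the Xbp1 call after SP300 at 200 mg/kg was lost in 7 of 10 fits without a mouse (control replicate 1, 2 or 4, SP300 200 mg/kg replicate 1, 2, 4 or 5), at 0.16 to 0.21.

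**Figure D4:**
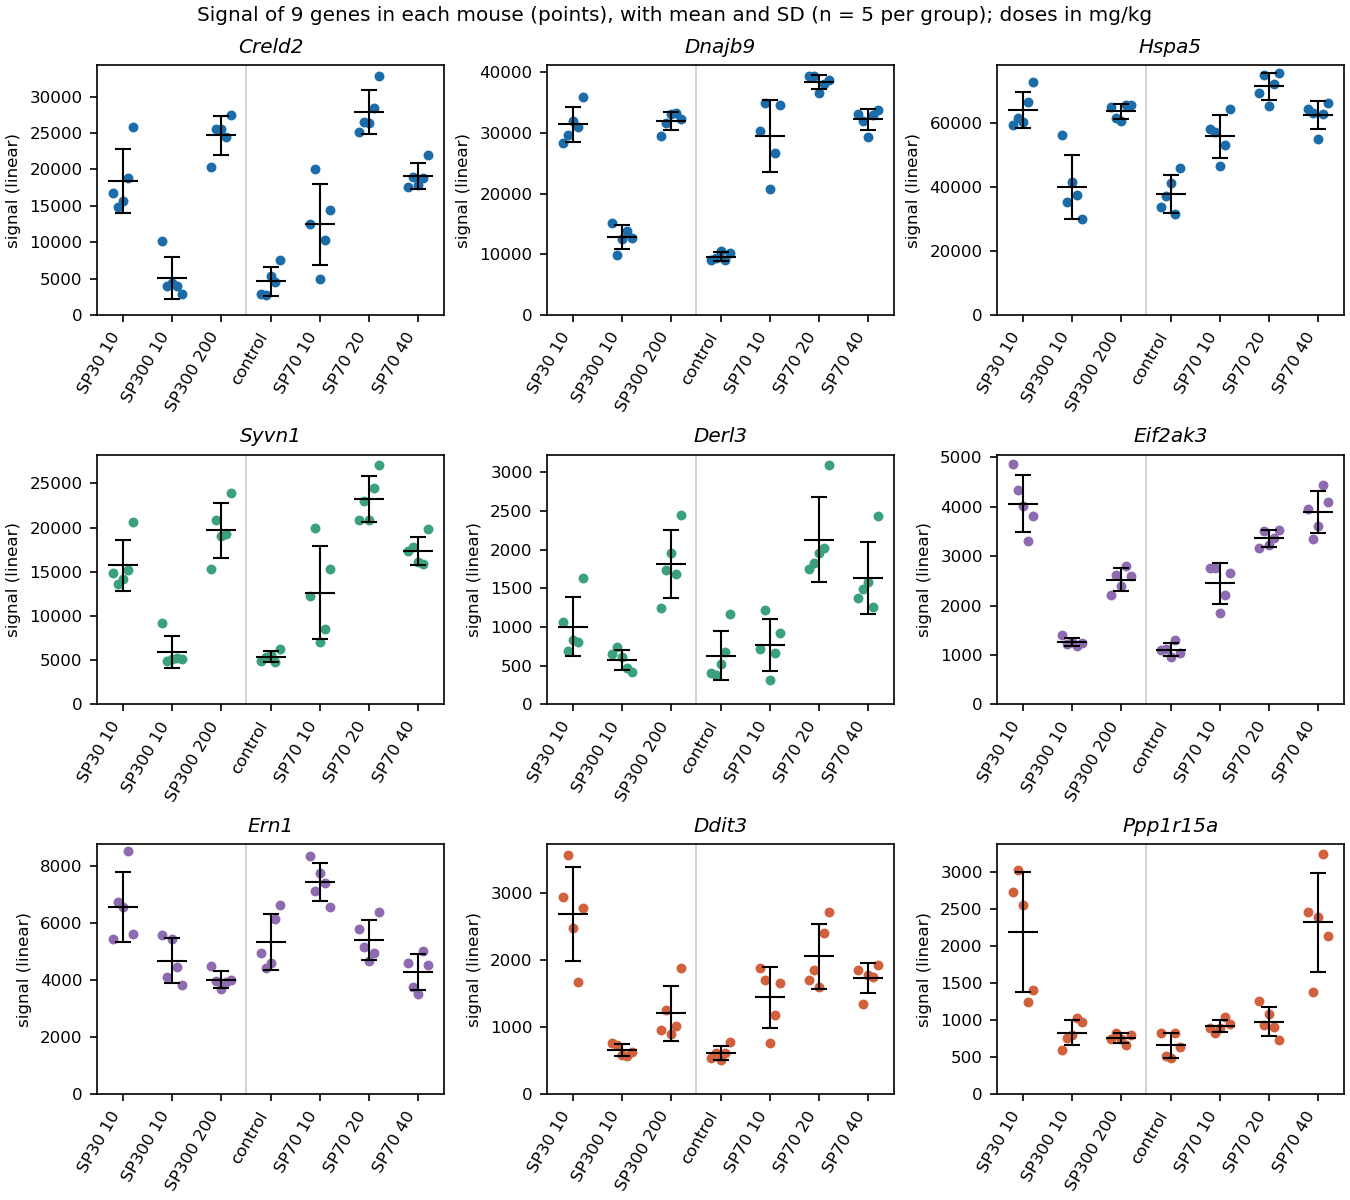
Signal per mouse (y axis, linear scale from 0, no unit) of 9 members in the 7 groups (x axis, doses in mg/kg), with points for the 5 mice of a group and bars for the mean and SD. Creld2, Syvn1 and Derl3 peak at 20 mg/kg of SP70, Eif2ak3 and Ppp1r15a are highest at 40 mg/kg of SP70 or after SP30, and Ern1 is highest at 10 mg/kg of SP70.

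In the PERK/ATF4 arm the genes with the widest ranges were Ddit3, Asns, Ppp1r15a and Trib3. Ddit3 encodes CHOP, a transcription factor linked to cell death under lasting ER stress. Ddit3 signal was 529, 617, 505, 617 and 779 in control mice, 1883, 1700, 763, 1182 and 1660 at 10 mg/kg of SP70, 1691, 1849, 1595, 2404 and 2712 at 20 mg/kg and 1843, 1342, 1772, 1739 and 1927 at 40 mg/kg. After SP30 Ddit3 was 2927, 3567, 2472, 1666 and 2774, and after SP300 it was 762, 729, 587, 558 and 627 at 10 mg/kg and 951, 1255, 898, 1014 and 1880 at 200 mg/kg. SP30 gave the highest mean, and 1 mouse at 10 mg/kg of SP70 lay within the control range. The log2 difference was 2.09 ± 0.21 after SP30, or 4.32-fold (adjusted p = 2.73e-10), 1.49 ± 0.21 after SP70 at 40 mg/kg (adjusted p = 3.55e-07) and 0.92 ± 0.21 after SP300 at 200 mg/kg (adjusted p = 0.000772).

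Ppp1r15a encodes GADD34, which brings a phosphatase to eIF2α and so reverses the action of PERK. Ppp1r15a was 829, 518, 483, 826 and 628 in control mice, 898, 825, 888, 1036 and 948 at 10 mg/kg of SP70, 1255, 931, 1077, 906 and 728 at 20 mg/kg and 2463, 1382, 2396, 3238 and 2132 at 40 mg/kg. It was 2726, 3028, 2554, 1245 and 1408 after SP30, 597, 754, 802, 1027 and 971 after SP300 at 10 mg/kg and 741, 829, 748, 658 and 797 after SP300 at 200 mg/kg. Mice given 40 mg/kg of SP70 and mice given SP30 were above all control mice, and the other 4 treatments overlapped them. The log2 difference was 1.79 ± 0.21 at 40 mg/kg of SP70 (adjusted p = 1.22e-08), 1.67 ± 0.21 after SP30 (adjusted p = 3.62e-08) and 0.23 ± 0.21 after SP300 at 200 mg/kg (adjusted p = 0.455).

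Asns, the gene of asparagine synthetase and a target of ATF4, had the lowest signals of the members given mouse by mouse, some of them under 165, the median of the whole table. Asns was 122, 217, 128, 71 and 189 in control mice, 176, 148, 166, 164 and 208 at 10 mg/kg of SP70, 290, 299, 417, 631 and 333 at 20 mg/kg and 410, 449, 312, 401 and 411 at 40 mg/kg. SP30 gave Asns signals of 346, 526, 429, 433 and 453, and SP300 gave 67, 160, 231, 133 and 43 at 10 mg/kg and 230, 231, 243, 297 and 144 at 200 mg/kg. Every mouse at 20 or 40 mg/kg of SP70 or after SP30 lay above every control mouse, and 10 mg/kg of SP70 lay inside the control range. With control signals under 165 set to 165, Asns was at least 2.1-fold, 2.2-fold and 2.42-fold higher after 20 mg/kg of SP70, 40 mg/kg of SP70 and SP30 (adjusted p = 0.000168, 7.7e-05 and 1.88e-05).

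Trib3 encodes a pseudokinase induced by ATF4 and CHOP. Its signal was 334, 187, 161, 136 and 244 in control mice, 428, 325, 289, 422 and 285 at 10 mg/kg of SP70, 277, 288, 327, 350 and 378 at 20 mg/kg and 455, 358, 500, 379 and 455 at 40 mg/kg. Trib3 after SP30 was 566, 440, 503, 340 and 395, and SP300 gave 455, 801, 648, 355 and 422 at 10 mg/kg and 487, 294, 417, 390 and 314 at 200 mg/kg. The low dose of SP300 gave the highest mean of all groups, with every mouse above the control mice. Trib3 was at least 2.43-fold higher there (log2 difference 1.29 ± 0.20, adjusted p = 0.000446), and it was the PERK/ATF4 gene that passed the test in all 6 treatments.

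The other 3 genes of the arm differed among themselves. Atf4 was higher by 0.58 ± 0.16, 0.96 ± 0.16 and 0.61 ± 0.16 on the log2 scale at the 3 doses of SP70 and by 0.88 ± 0.16 after SP30, and did not pass the test after SP300 at 200 mg/kg (0.34 ± 0.16, adjusted p = 0.109). Chac1, which encodes an enzyme that breaks down glutathione, was higher at 20 and 40 mg/kg of SP70 and after SP30, by 1.14 ± 0.22, 0.86 ± 0.22 and 0.63 ± 0.22. Sesn2, a sestrin gene of the stress response, passed limma's test in 0 of the 6 comparisons with control and in 1 at an unadjusted p under 0.05. Its difference was 0.78 ± 0.32 after SP300 at 10 mg/kg (adjusted p = 0.261), where the signals were 520 to 841, against 214 to 583 in control mice.

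Many of the genes differed between the lower doses of SP70 in the direct test. At 20 mg/kg against 10 mg/kg, 18 of the 37 genes were higher and 1 (Ern1) lower, where 4.99% of all genes were higher and 12.0% lower. Of these 18, 10 were chaperones, 5 ERAD and translocon genes, 2 PERK/ATF4 genes (Chac1 and Asns), and the last was Eif2ak3. Derl3 averaged 2127 ± 547 at 20 mg/kg and 768 ± 333 at 10 mg/kg, a log2 difference of 1.55 ± 0.28 (adjusted p = 0.000232), and Creld2 differed by 1.29 ± 0.27 (adjusted p = 0.00115). For Syvn1 the difference was 0.97 ± 0.18, and for Sdf2l1 1.23 ± 0.27. Hspa5 differed by 0.36 ± 0.11 (adjusted p = 0.0169).

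Between 40 and 20 mg/kg of SP70, in the fit over all 7 groups, the 37 genes passed the test about as often as all genes did. Against 20 mg/kg, 1 of the 37 genes was higher at 40 mg/kg and 3 were lower, where 2.79% of all genes were higher and 8.69% lower. The higher gene was Ppp1r15a, with 2322 ± 668 at 40 mg/kg and 979 ± 198 at 20 mg/kg and a log2 difference of 1.21 ± 0.21 (adjusted p = 0.000188). The lower ones were Herpud1 (-0.45 ± 0.10), Sel1l (-0.59 ± 0.12) and Edem2 (-0.34 ± 0.11). All 26 genes of the ATF6/XBP1 arm had a difference below 0, from -0.59 to -0.02 with a median of -0.27, beside -0.09 over all genes, but 23 of them did not pass the test. The 95% interval was -1.10 to 0.01 for Creld2 and -0.42 to 0.02 for Hspa5. In a fit of the compared groups alone 12 of the 37 genes were lower, where 1007 of all 12669 genes were lower.

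Over the whole dose range, at 40 mg/kg against 10 mg/kg, 8 of the 37 genes were higher and 2 lower, where 5.22% of all genes were higher and 25.3% lower. Creld2, Manf, Sdf2l1, Syvn1, Derl3, Eif2ak3, Asns and Ppp1r15a were higher, from 0.51 for Manf to 1.28 for Ppp1r15a, and Ern1 (-0.80 ± 0.12) and Derl2 (-0.37 ± 0.10) were lower. The median of all genes was -0.13 in this comparison. After quantile normalization, which set that median to 0, 20 members were higher. Without SP70 10 mg/kg replicate 3, replicate 4 or SP70 40 mg/kg replicate 5 the count of higher members was 4.

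Across the 7 groups, 24 of the 37 genes, among them all 14 chaperones and folding factors and 8 ERAD and translocon genes, had their highest mean log2 signal at 20 mg/kg of SP70, as did 15.4% of all genes tested. Of the PERK/ATF4 genes, 2 peaked there, 2 after SP30, 2 after SP300 at 10 mg/kg and 1 at 40 mg/kg of SP70. These positions of the maximum are a description, with no test.

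Most of the genes differed between the doses of SP300. At 200 mg/kg against 10 mg/kg, 24 of the 37 genes were higher and 1 (Derl2) lower, where 9.41% of all genes were higher and 22.4% lower. The ATF6/XBP1 arm gave 20 of its 26 genes, the sensors Eif2ak3 and Atf6, and the PERK/ATF4 arm Ddit3 and Asns. Creld2 averaged 24657 ± 2648 at 200 mg/kg and 5076 ± 2888 at 10 mg/kg, a log2 difference of 2.42 ± 0.27 (adjusted p = 2.12e-08). Hspa5 differed by 0.70 ± 0.11 (adjusted p = 5.49e-06). Trib3 had a difference of -0.44 ± 0.20 that did not pass the test (adjusted p = 0.0973).

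At the equal dose of 10 mg/kg, SP30 and SP70 gave higher signals of many of these genes than SP300. SP30 against SP300 had 23 of 37 genes higher and 2 (Derl2 and Sesn2) lower, where 16.3% of all genes were higher and 35.6% lower. Creld2 differed by 1.97 ± 0.27 (adjusted p = 2.18e-07), Ddit3 by 1.99 ± 0.21 (adjusted p = 7.64e-10), and Eif2ak3 by 1.67 ± 0.10 (adjusted p = 4.32e-15). SP70 against SP300 had 11 higher and 1 (Trib3) lower, where 10.5% of all genes were higher and 10.2% lower. Dnajb9 differed there by 1.19 ± 0.10 (adjusted p = 2.68e-11), Ern1 by 0.68 ± 0.12 (adjusted p = 0.000105), and Trib3 by -0.56 ± 0.20 (adjusted p = 0.0485). The Trib3 call was lost in 5 of 10 fits without a mouse, at -0.54 to -0.40.

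Between SP30 and SP70 at 10 mg/kg fewer genes differed. In SP30 mice, 8 of the 37 genes were higher and 1 (Derl2) lower than in SP70 mice, where 5.41% of all genes were higher and 23.6% lower. Ppp1r15a averaged 2192 ± 810 after SP30 and 919 ± 79 after SP70, a log2 difference of 1.16 ± 0.21 (adjusted p = 6.92e-05). Asns (1.28 ± 0.29), Ddit3 (0.92 ± 0.21), Hyou1 (0.75 ± 0.21), Sdf2l1 (0.73 ± 0.27), Eif2ak3 (0.73 ± 0.10), Manf (0.55 ± 0.19) and Edem1 (0.41 ± 0.15) were the others that were higher. For Creld2 the difference of 0.67 ± 0.27 did not pass the test (adjusted p = 0.0636). After quantile normalization 17 members were higher, and without SP70 10 mg/kg replicate 3 or 4, or SP30 10 mg/kg replicate 4 or 5, 5 were.

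At the toxic doses, 1 of the 14 chaperone genes (Pdia4) passed the test in any of the 3 comparisons of particles. Sel1l, Xbp1 and some sensor, derlin and PERK/ATF4 genes passed it in some. The counts of the 37 genes were close to the shares of all genes beside them, except for the higher genes of SP30 against SP300. SP30 at 10 mg/kg against SP70 at 40 mg/kg had 1 of the 37 genes higher and 0 lower, where 3.68% of all genes were higher and 2.03% lower. That gene was Ern1, at 6561 ± 1224 after SP30 and 4275 ± 631 after SP70, a log2 difference of 0.61 ± 0.12 (adjusted p = 0.00178). This call was lost with the mean of all probe sets. For the others the test did not pass, and the 95% interval was -0.63 to 0.48 for Creld2, -0.18 to 0.26 for Hspa5 and 0.18 to 1.02 for Ddit3. Derl3 had a difference of -0.72 ± 0.28 (adjusted p = 0.133). At an unadjusted p under 0.05, 3 of the 37 genes were higher and 1 lower. The share of all genes at that threshold was not counted, so this count describes the 37 genes alone.

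SP30 at 10 mg/kg against SP300 at 200 mg/kg had 7 of the 37 genes higher and 5 lower, where 11.7% of all genes were higher and 17.5% lower. The higher ones were 4 PERK/ATF4 genes, Ppp1r15a (1.44 ± 0.21), Ddit3 (1.16 ± 0.21), Asns (0.92 ± 0.29) and Atf4 (0.54 ± 0.16), and Ern1 (0.69 ± 0.12), Eif2ak3 (0.68 ± 0.10) and Xbp1 (0.22 ± 0.07). Ppp1r15a had 2192 ± 810 after SP30 and 755 ± 65 after SP300, with an adjusted p of 2.61e-06. The lower ones were Derl3 (-0.88 ± 0.28), Sel1l (-0.66 ± 0.12), Derl1 (-0.58 ± 0.16), Pdia4 (-0.50 ± 0.14) and Atf6 (-0.30 ± 0.09). No gene of the ATF6/XBP1 arm was higher, and its median was -0.10, beside -0.08 over all genes.

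SP70 at 40 mg/kg against SP300 at 200 mg/kg had 2 higher genes, Ppp1r15a (1.56 ± 0.21, adjusted p = 2.76e-06) and Eif2ak3 (0.62 ± 0.10, adjusted p = 9.75e-05), and 3 lower, Derl1 (-0.61 ± 0.16), Sel1l (-0.46 ± 0.12) and Atf6 (-0.27 ± 0.09), where 5.04% of all genes were higher and 10.4% lower. Marker sums also differed among the toxic doses. Neutrophil markers summed to 49150 to 67061 after SP30, 27111 to 64320 after SP70 and 10815 to 25873 after SP300. In the same order, Kupffer cell markers summed to 8542 to 18906, 1890 to 3138 and 1976 to 2512. Monocyte markers summed to 54934 to 59249, 44915 to 59207 and 42943 to 49229, and already to 38426 to 40745 in control mice. The part of each monocyte marker, Fn1 among them, in that sum was not examined, so the sum is no measure of monocyte number. Endothelial markers summed to 8541 to 13988, 5812 to 13829 and 9392 to 20199. Hepatocyte markers summed to 807729 to 894624, 705001 to 837660 and 725470 to 816373. The part of these shifts in the differences was not tested.

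**Figure D5:**
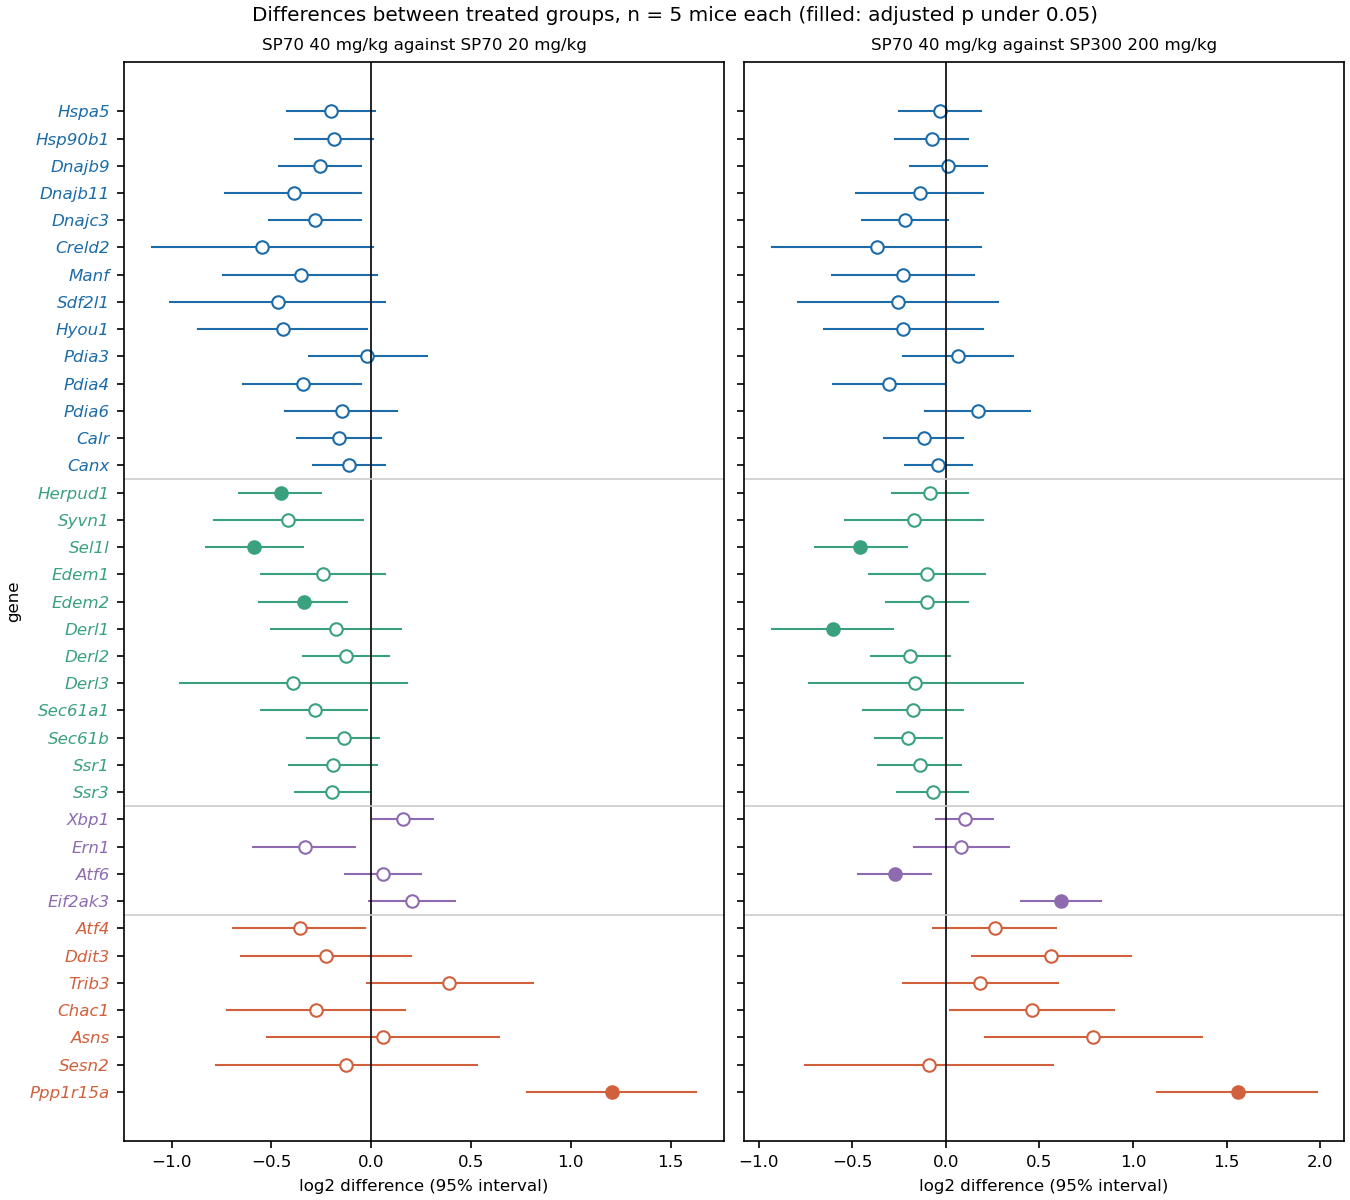
Log2 difference with its 95% interval (x axis) for each of the 37 genes in SP70 at 40 mg/kg against 20 mg/kg and in SP70 at 40 mg/kg against SP300 at 200 mg/kg, 5 mice per group. In the comparison of doses the ATF6/XBP1 arm lies left of 0 and Ppp1r15a lies right of it, and in the comparison of sizes Ppp1r15a and Eif2ak3 lie right of 0 and Derl1, Sel1l and Atf6 left of it.

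Within a group, the same mouse tended to be high for many of the 26 genes of the ATF6/XBP1 arm. At 10 mg/kg of SP70, mouse 2 was the highest of its group for 19 of the 26 genes, where it was the highest for 27.2% of all genes, and mouse 3 was the lowest for 15 and mouse 4 for 11, where they were the lowest for 17.6% and 37.1% of all genes. At 40 mg/kg of SP70, mouse 5 was highest for 21 (18.5% of all genes) and mouse 3 lowest for 19 (32.3%). After SP300 at 10 mg/kg, mouse 1 was highest for 16 (18.5%) and mouse 5 lowest for 19 (26.1%). Among the control mice, mouse 5 was highest for 18 (23.2%) and mouse 1 lowest for 15 (18.2%). The genes of an array share its RNA and scaling, so these counts are a description with no test.

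Some calls did not hold in every fit without 1 mouse. Several were lost whichever of many mice was left out, as was Edem2 of SP70 at 20 against 10 mg/kg in 9 of 10 fits. Against control, 7 of the 21 calls at 10 mg/kg of SP70 were lost in a fit without some mouse (Hsp90b1, Dnajb11, Dnajc3, Sdf2l1, Hyou1, Sec61a1 and Sec61b), as were 2 of 30 at 20 mg/kg (Trib3 and Ppp1r15a), 3 of 30 at 40 mg/kg (Pdia4, Pdia6 and Ern1), 4 of 29 after SP30 (Derl2, Derl3, Ern1 and Chac1), 1 of 3 after SP300 at 10 mg/kg (Dnajb9) and 3 of 27 after SP300 at 200 mg/kg (Calr, Xbp1 and Ern1). Between treated groups, 4 of 10 calls of SP70 at 40 mg/kg against 10 mg/kg (Creld2, Manf, Sdf2l1 and Syvn1) were lost in this way, as were 6 of 19 of SP70 at 20 mg/kg against 10 mg/kg (Hspa5, Hsp90b1, Pdia4, Edem2, Ssr3 and Chac1), with Hspa5 at 0.30 without SP70 10 mg/kg replicate 3. For the doses of SP300, 5 of 25 calls were lost (Edem2, Derl2, Sec61a1, Ssr3 and Asns). At 10 mg/kg, 7 of 25 calls of SP30 against SP300 (Hsp90b1, Dnajc3, Edem2, Derl3, Ssr1, Chac1 and Sesn2), 3 of 12 of SP70 against SP300 (Manf, Atf4 and Trib3) and 4 of 9 of SP30 against SP70 (Manf, Sdf2l1, Edem1 and Derl2) were lost. At the toxic doses, 4 of 12 calls of SP30 against SP300 were lost: Derl3 without SP30 10 mg/kg replicate 2 or SP300 200 mg/kg replicate 5 (-0.77 to -0.76), Xbp1 without SP30 10 mg/kg replicate 2 or 4 (0.19 to 0.20), and Atf6 (-0.25) and Asns (0.77) without SP300 200 mg/kg replicate 5. Edem2, 1 of the 3 genes lower at 40 mg/kg of SP70 than at 20 mg/kg, lost its call in 7 of 10 such fits, at -0.35 to -0.27. Atf6, lower after SP70 at 40 mg/kg than after SP300 at 200 mg/kg, lost it in 7 of 10, at -0.29 to -0.22.

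Genes of the pathway outside the 37 were counted in lists of their own, beside the same shares of all genes as above: 12.5%, 18.8% and 15.6% higher and 5.70%, 20.9% and 28.8% lower at the 3 rising doses of SP70, 18.1% and 31.3% after SP30, and 0.924% and 0.245% after SP300 at 10 mg/kg and 12.6% and 18.0% at 200 mg/kg. Of 43 other ER folding, quality control and transport genes tested, 10, 29 and 23 were higher at the 3 rising doses of SP70, 21 after SP30, and 0 and 26 after SP300 at 10 and 200 mg/kg. In the same order, 0, 0 and 4 were lower after SP70, 3 after SP30, and 0 and 0 after SP300. The named ones are the 4 with the smallest adjusted p. Wfs1 (wolframin, an ER membrane protein) was 1.64 ± 0.18 above control on the log2 scale at 20 mg/kg of SP70 and 1.57 ± 0.18 after SP300 at 200 mg/kg. Sec24d, a coat component of vesicles leaving the ER, was 1.24 ± 0.12 and 1.12 ± 0.12 above control, and the ER thioredoxin-domain gene Txndc11 1.23 ± 0.13 and 0.97 ± 0.13, in the same groups. Ero1a, the oxidase that recharges disulfide isomerases, was 0.66 ± 0.18 above control at 20 mg/kg of SP70, 2.47 ± 0.18 at 40 mg/kg and 2.16 ± 0.18 after SP30.

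Of 15 other genes of unfolded protein response signalling, 8, 6 and 6 were higher after the 3 doses of SP70, 7 after SP30, and 1 and 4 after SP300, and 0, 1 and 4 were lower after SP70, 2 after SP30, and 0 and 1 after SP300. Creb3l2, an ER-anchored transcription factor related to ATF6, was 1.11 ± 0.12, 1.49 ± 0.12 and 1.21 ± 0.12 above control at the 3 doses of SP70, 1.31 ± 0.12 after SP30 and 1.29 ± 0.12 after SP300 at 200 mg/kg. Bcl2l11, a gene of cell death, was 1.26 ± 0.13, 1.15 ± 0.13 and 0.61 ± 0.13 above control after SP70, and 1.16 ± 0.13 after SP30. Creb3 and Map3k5 (ASK1, a kinase downstream of IRE1) were the other 2 with the smallest p. Creb3 was 0.55 ± 0.07 above control at 20 mg/kg of SP70, and Map3k5 was 1.17 ± 0.13 above control after SP30 and 0.93 ± 0.13 after SP300 at 10 mg/kg.

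Of 33 other ATF4 targets, 11, 17 and 17 were higher after the 3 doses of SP70, 15 after SP30, and 0 and 10 after SP300, and 0, 5 and 2 were lower after SP70, 5 after SP30, and 0 and 4 after SP300. Mthfd2, an enzyme of mitochondrial folate metabolism, was 1.68 ± 0.19, 2.61 ± 0.19 and 2.81 ± 0.19 above control after SP70, 2.93 ± 0.19 after SP30 and 2.46 ± 0.19 after SP300 at 200 mg/kg. The transcription factor gene Atf3 was 3.83 ± 0.40 above control at 40 mg/kg of SP70 and 3.42 ± 0.40 after SP30, and Slc7a1, a cationic amino acid transporter, was 1.36 ± 0.14 and 1.43 ± 0.14 above control in those groups. Cth, an enzyme of cysteine synthesis, was lower there, with differences of -1.20 ± 0.11 and -1.04 ± 0.11. The last list has 14 heat shock genes, most of them cytosolic chaperone genes, with the mitochondrial chaperone genes Hspd1 and Hspe1 and the haem oxygenase gene Hmox1, which encodes no chaperone, among them. Of these 14, 2, 4 and 5 were higher after SP70, 5 after SP30, and 0 and 2 after SP300, and 0, 1 and 2 were lower after SP70, 1 after SP30, and 0 and 3 after SP300. The share of 2 in 14 is close to that of all genes at 10 mg/kg of SP70 (12.5%) and at 200 mg/kg of SP300 (12.6%). Hmox1 was higher in 5 of the treatments, by 0.85 ± 0.32 after SP300 at 200 mg/kg and up to 3.74 ± 0.32 after SP30.

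The choice of probe set bears on the calls. The array holds 91 probe sets for the 37 genes, and 28 genes have several. Of 49 further probe sets that passed the filter, 30, 41 and 32 gave the same call as the probe set used at the 3 rising doses of SP70, 32 after SP30, and 46 and 27 after SP300 at 10 and 200 mg/kg. The other differences were calls made by 1 probe set and not by the other, apart from Ern1 after SP30. A call of the probe set used was not made by the further one in 13, 4 and 13 cases after SP70, 11 after SP30, and 2 and 20 after SP300. The reverse held in 6, 4 and 4 cases after SP70, 5 after SP30, and 1 and 2 after SP300. At 10 mg/kg of SP300 few calls were made at all.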

How the data were processed

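Each array was counted as 1 mouse, since the labels call the arrays of a group biological replicates. The intensity values were deposited by the authors, 1 per probe set and array on a linear scale, and the submitters' processing notes name MAS5. How the arrays were scaled is not given in the sources used, and no scaling was added. The table holds 45101 probe sets, of which 34945 are annotated with 1 gene, 932 with several and 9160 with none, and those with several or none were left out. The table carries no detection or saturation calls.

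Each gene was represented by its probe set of highest mean signal, kept where at least 5 arrays had a signal over 165, the median of the whole table. The pseudocount of 12.5 is the 10th percentile. In limma 3.58.1 (R 4.3.3), group means were fitted over all 35 arrays, with empirical Bayes moderation, a variance trend and Benjamini-Hochberg adjustment over 12669 genes, for 6 comparisons with control and 10 between treated groups. Standard errors (SE) are the moderated ones. Folds are ratios of geometric mean signals without the pseudocount. Those against signals under 165 use 165 and are given as at least. The fit was tested on simulated data.

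The members and the lists were chosen with earlier results of these data known, so no list has a p-value of its own. Every member is named. The 14 given mouse by mouse have the widest ranges of group means within their role list, and of each other pathway list the 4 genes with the smallest adjusted p are named. Symbols come from the platform's annotation, and RefSeq changed 0 of them. Protein sequence features were not analysed here. The alternatives were other pseudocounts, filters, scalings, probe set choices and fits, a block for the replicate number, and fits without each mouse.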

Additional observations from a re-analysis of the deposited data

Results flagged for a closer look

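In 12 of 259 combinations of a member and a group, 1 mouse stood apart from the other 4 by Dixon's ratio at its 95% critical value. Chance flags about 1 in 20 groups. At 40 mg/kg of SP70, mouse 3 was low for Hspa5 (54734, nearest 62810), Calr (30423, nearest 38301) and Chac1 (1811, nearest 2348), and mouse 2 was low for Ddit3 (1342, nearest 1739). At 20 mg/kg of SP70, mouse 3 was high for Derl2 (17184, nearest 15675) and mouse 5 high for Derl3 (3087, nearest 2024). At 10 mg/kg of SP70, mouse 2 was low for Chac1 (979, nearest 1892), although it was the highest of its group for 19 of the 26 genes of the ATF6/XBP1 arm. Syvn1 was high in mouse 5 after SP30 (20674, nearest 15199) and in mouse 1 after SP300 at 10 mg/kg (9197, nearest 5232). Sesn2 was low in mouse 5 after SP300 at 200 mg/kg (92, nearest 546). Control mouse 1 was low for Ssr1 (7709, nearest 8801) and Atf6 (2069, nearest 2591).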

How the results depend on the processing

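Of the comparisons with control, the counts of the ATF6/XBP1 arm and of the PERK/ATF4 genes after SP70 at 20 and 40 mg/kg and after SP30 stayed within 1.5 times of the reported ones under every alternative run. After SP300 at 10 mg/kg, the 2 higher genes of the ATF6/XBP1 arm became 1 with no filter, with quantile normalization, with arrays centred on their medians and with no trend, and 0 in a fit of only the groups compared, in which the 1 PERK/ATF4 gene became 0. After SP300 at 200 mg/kg, 4 PERK/ATF4 genes were higher with the mean of all probe sets.

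Between treated groups, quantile normalization gave 3 members higher for SP70 40 against 20 mg/kg (2 with the mean of all probe sets), 20 higher and 1 lower for 40 against 10 mg/kg (1 lower with the mean of all probe sets), and 17 higher for SP30 against SP70 at 10 mg/kg. It also gave 0 lower for SP30 against SP70 at 10 mg/kg, as did centring and the fit of only the groups compared, and 0 lower for SP300 200 against 10 mg/kg, as did centring and the mean of all probe sets. For SP30 against SP70 at 40 mg/kg, 2 members were higher with centring, 0 with the mean of all probe sets and 2 with the replicate block. The mean of all probe sets gave 0 members lower for SP70 20 against 10 mg/kg, 6 lower for 40 against 20 mg/kg (12 in the fit of only the groups compared), 3 lower for SP30 against SP300 at 200 mg/kg, and 1 lower for SP70 40 mg/kg against SP300 200 mg/kg (6 with centring). For SP30 against SP300 at 10 mg/kg, 1 member was lower with a pseudocount of 1, no filter, quantile normalization, centring, the mean of all probe sets, the replicate block or no trend. For SP70 against SP300 at 10 mg/kg, 0 were lower with a pseudocount of 1, no filter or no trend. Derl2 in SP300 200 against 10 mg/kg changed sign with the mean of all probe sets (0.004, adjusted p = 0.985). The cause of these changes was not tested.

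The replicate numbers of the labels were checked as a pairing: deviations from the group means correlated at a mean of -0.000553 for the same number (105 pairs, -0.103 to 0.112) and 0.000135 for other numbers (420 pairs, -0.137 to 0.169), so the number was used only as an alternative. Apart from the counts given above, the block moved no count by over 1.5 times.

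Leaving out 1 mouse in turn, counts of higher genes ran from 8 to 17 (ATF6/XBP1 arm, SP70 10 mg/kg), 1 to 3 (ATF6/XBP1 arm, SP300 10 mg/kg), 2 to 4 (PERK/ATF4, SP300 200 mg/kg), 4 to 9 (SP70 40 against 10 mg/kg), 5 to 10 (SP30 against SP70 at 10 mg/kg) and 1 to 2 (SP30 against SP70 at 40 mg/kg). Counts of lower members ran from 1 to 2 (SP70 20 against 10 mg/kg and SP30 against SP300 at 10 mg/kg), 0 to 2 (SP300 200 against 10 mg/kg and SP30 against SP70 at 10 mg/kg), 0 to 1 (SP70 against SP300 at 10 mg/kg) and 3 to 5 (SP30 against SP300 at 200 mg/kg).

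Scaling also moved the split over all genes. Higher against lower genes were 1316 against 1407 after quantile normalization for SP70 10 mg/kg against control (1580 against 722 as deposited), 73 against 56 for SP300 10 mg/kg (117 against 31), 950 against 1272 for SP70 20 against 10 mg/kg (632 against 1520), 595 against 471 for 40 against 20 (354 against 1101), 1430 against 1712 for 40 against 10 (661 against 3211), 1820 against 1865 for SP300 200 against 10 (1192 against 2835), 1356 against 1821 for SP30 against SP70 at 10 mg/kg (685 against 2991) and 2718 against 3748 for SP30 against SP300 at 10 mg/kg (2059 against 4508). Centring gave 1867 against 3274 for SP70 20 mg/kg against control (2383 against 2653), 57 against 30 for SP300 10 mg/kg, 1772 against 1536 for SP300 200 mg/kg (1598 against 2286), 348 against 505 for SP70 40 against 20, 1503 against 1737 for SP300 200 against 10, 805 against 1953 for SP30 against SP70 at 10 mg/kg, 627 against 139 for SP30 against SP70 at 40 mg/kg (466 against 257) and 476 against 2545 for SP70 40 against SP300 200 mg/kg (639 against 1321). The all-gene median moved by over 0.1 for SP70 40 against 10 mg/kg (-0.13 as deposited, 0 after quantile normalization) and for SP30 against SP70 at 10 mg/kg (-0.13 and -0.01).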

Other observations

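Some genes outside the 37 also hold the ER stress response element in the promoter window, and their values are given with no explanation. Of 28 such genes, 7 were tested. At 20 mg/kg of SP70 against control 4 were higher (Alg12, Acnat2, Ero1b and Pan2) and 2 lower (Acacb and Adcy3), where 18.8% of all genes were higher and 20.9% lower. The median log2 difference of the 7 there was 0.55, beside 0.77 for the 9 members with the element and -0.03 over all genes. At 10 and 40 mg/kg of SP70, 2 and 4 of the 7 were higher, as were 3 after SP30, and 0 and 4 after SP300 at 10 and 200 mg/kg. Ero1b is also in the list of other ER folding, quality control and transport genes.

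Alg12, which encodes a mannosyltransferase that builds the sugar chain added to proteins in the ER, lies head to head with the member Creld2. In GRCm38.p6 the Alg12 promoter window is on the minus strand of chromosome 15 at 88819269 to 88819568 and that of Creld2 on the plus strand at 88819396 to 88819695. The element at 88819520 to 88819538, printed above for Creld2, lies in both windows. Alg12 was 0.84 ± 0.19, 1.43 ± 0.19 and 1.13 ± 0.19 above control (log2, SE) at 10, 20 and 40 mg/kg of SP70, 1.13 ± 0.19 after SP30, and 0.18 ± 0.19 and 1.29 ± 0.19 after SP300 at 10 and 200 mg/kg. The adjusted p by limma was 0.001, 1.25e-07 and 5.06e-06 for SP70, 4.44e-06 for SP30, and 0.719 and 1.35e-06 for SP300. Both genes thus had their largest difference from control at 20 mg/kg of SP70, and neither passed the test after SP300 at 10 mg/kg.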
